A study of Mus musculus with 6 samples.

Results

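The laminin, basement membrane and integrin genes are the genes for the sheet of matrix that wraps each muscle fibre and for the receptors by which cells hold on to it. They were taken by gene symbol alone, as every listed gene whose symbol names a laminin chain (Lama, Lamb, Lamc), an integrin alpha chain with a number or the v chain, or an integrin beta chain with a number, together with Nid1, Nid2, Hspg2 and Agrn. Of 40 mouse symbols that match, 36 were among the 13363 listed genes, and Itga2, Itgb2l, Itgb8 and Lama1 were not. The integrin pattern also takes Itgb1bp1, Itgb1bp2 and Itgb3bp, whose products bind integrin tails and are no integrin chains, and they are kept apart here.

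A basement membrane is built from laminin trimers, each of an alpha, a beta and a gamma chain, and from a network of type IV collagen. Nidogens and the proteoglycans perlecan (Hspg2) and agrin (Agrn) join the laminin layer to the collagen layer and to the cell. Integrins are pairs of an alpha and a beta chain, and muscle fibres hold laminin mainly through integrin alpha7 beta1 and through dystroglycan.

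RNA was sequenced from 3 gastrocnemius samples of C26 mice and 3 of control mice, all male Balb/c bought at 6 weeks of age with no engineered allele named in the labels. The former bore tumors of C26, a mouse colon adenocarcinoma line that makes its host lose muscle, grown from 500000 cells placed under the skin of the flank, and the controls carried no tumor. The comparison asks which transcripts of the wasting muscle differ from those of normal muscle. In whole muscle, fewer cells of a type and less RNA per cell cannot be told apart.

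Levels are given as TPM scaled by TMM factors, which make 1 FPKM as deposited worth 1.71 to 1.89 in the C26 group and 1.44 to 1.69 in the control group. FPKM and TPM are per transcript length, so levels of different genes can be set side by side. A gene was called higher or lower at an adjusted p under 0.05 (limma, Benjamini-Hochberg adjustment over all listed genes) and a DEG if it also differed by more than 4-fold. Muscle fibre genes were high in all 6 libraries, with creatine kinase (Ckm) at 24508 to 42515 TPM and the troponin gene Tnnt3 at 28522 to 41976. Control replicate 3 stood apart. Its lymphocyte marker Cd79b had 194 TPM against at most 1.45 elsewhere, its leukocyte marker Ptprc had 57.9 against at most 1.21, and its 7 adipocyte markers summed to 777 TPM against 3478 and 6185 in the other controls. Among the C26 muscles, replicate 2 had 422 TPM of the macrophage marker Cd68, against 61.7 and 12.2 in the others, and replicate 3 had 4838 TPM of the fast myosin gene Myh1, against 139 to 560 in the other 5 muscles. Every muscle was kept. Nothing in the labels says that the samples of a group, called muscles here, came from separate animals, so the p-values measure the spread between these samples.

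Of the 36 genes 2 were higher, 6 were lower and 28 did not pass. The log2 fold change was below 0 for 27 and above 0 for 9 (7079 and 6284 of all listed genes), with a median of -0.29, against -0.05 over all listed genes. With quantile normalization these medians were -0.05 and 0.02, and with the FPKM used as deposited -0.30 and -0.14. Lama4, Hspg2, Nid2, Itga4, Itga11 and Itgb6 fell, 6 genes or 16.7% of the members, against 14.5% of all listed genes. Itga5 and Itgb1 rose, 2 genes or 5.56%, against 19.4% of all listed genes. The groups did not overlap, with C26 lower, for 16 members or 44.4%, against 26.5% of all listed genes, and with C26 higher for 4 members or 11.1%, against 27% of all. Itgb6 was a downregulated DEG, as were 1.73% of all listed genes, and 0 members were upregulated DEGs by limma, against 1.77%, the highest log2 fold change among them being 1.12. At an unadjusted p under 0.05, 3 members were higher and 11 lower, and over all listed genes 25.1% were higher and 22% lower. With the FPKM used as deposited 1 member was higher and 9 were lower, and over all listed genes the calls moved from 2590 higher and 1931 lower to 1678 and 2504. Without control replicate 3, 12 members were lower, among them Nid1, Agrn and Lamb1, and Itga5 alone was higher, while over all listed genes 14.7% were lower and 16.7% higher. Without C26 replicate 1, 0 members were higher by limma, and without C26 replicate 2, control replicate 1 or control replicate 2 there was 1. Over all listed genes the share called higher fell as well, to 8.46% without C26 replicate 1, 11.4% without C26 replicate 2, 8.62% without control replicate 1 and 15% without control replicate 2, and the share called lower to 5.01%, 7.08%, 5.42% and 10.5%. Without C26 replicate 3 these shares were 24.8% and 16.2%. Counts for related lists without these muscles stand against the same shares.

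**Figure D1:**
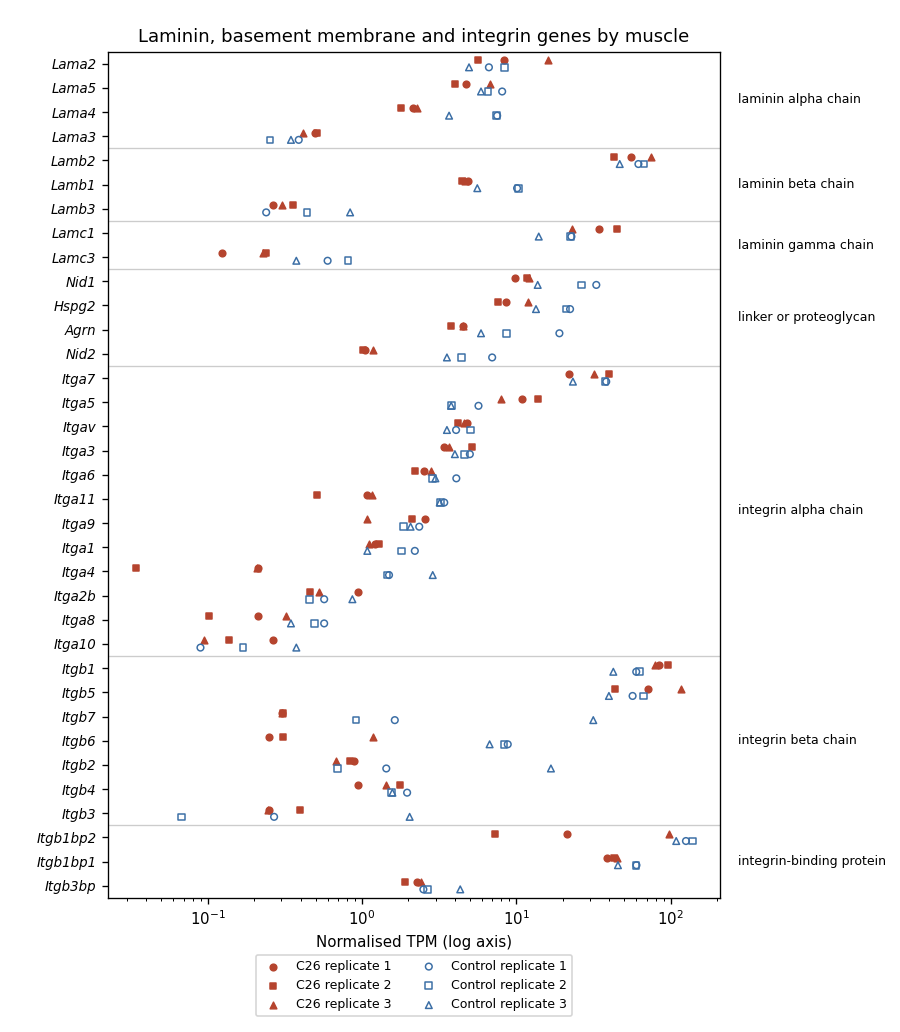
Normalised TPM of the members named in the text in the 6 muscles, on a log axis, with filled symbols for C26 and open symbols for control muscles and the gene classes named at the right. Lamb2, Itgb1 and Itgb5 lie highest among the laminin and integrin chains, the 4 linkers and proteoglycans have every C26 muscle below every control, and Itgb7 and Itgb2 stand out in control replicate 3.

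Among the laminin alpha chains, Lama4 fell. Lama4 encodes the alpha4 chain found in the basement membranes of vessels, nerves and fat cells. Its level was 2.14, 1.78 and 2.27 TPM in C26 muscles against 7.52, 7.45 and 3.67 TPM in controls. The groups did not overlap, and control replicate 3 lay between the other controls and the C26 muscles. It was lower by a log2 fold change of -1.18 (SE 0.26, limma adjusted p = 0.0169). The call was lost when any muscle other than C26 replicate 3 or control replicate 3 was left out, with a limma adjusted p of up to 0.0651, and with quantile normalization (limma adjusted p = 0.0753).

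Lama2, the alpha2 chain of the muscle fibre's own basement membrane, had 8.36, 5.68 and 16.1 TPM in C26 muscles and 6.65, 8.36 and 4.94 TPM in controls. The groups overlapped, and C26 replicate 3 was the highest of all. Its log2 fold change was 0.44 (SE 0.36, limma adjusted p = 0.369), which was 0.15 without C26 replicate 3 and 0.75 without C26 replicate 2. Lama5, the alpha5 chain of vessel and developing basement membranes, had 3.99 to 6.74 TPM in C26 muscles and 5.91 to 8.10 in controls, a log2 fold change of -0.37 that did not pass. Lama3, an epithelial chain, was low, at 0.42 to 0.51 TPM against 0.25 to 0.39, and although its groups did not overlap its log2 fold change of 0.15 did not pass except with quantile normalization (0.43, limma adjusted p = 0.0441).

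A share of the chains within a muscle does not change when all values of that muscle are multiplied by a factor, although quantile normalization can change it. Lama2 took 53.1%, 47.5% and 63.0% of the summed alpha chain FPKM in C26 muscles against 29.3%, 36.9% and 33.2% in controls. Each C26 muscle was above each control, with a mean difference of 21.4 percentage points (18.8 with quantile normalization). A two-sided exact permutation test gave p = 0.1, the smallest that 3 muscles against 3 allow, and 0.3 after Benjamini-Hochberg adjustment over the 3 shares tested. Lama4 took 8.92% to 14.9% in C26 muscles and 24.7% to 33.2% in controls. For Lama5 the shares overlapped, at 26.4% to 33.3% and 29.0% to 39.7%.

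**Figure D2:**
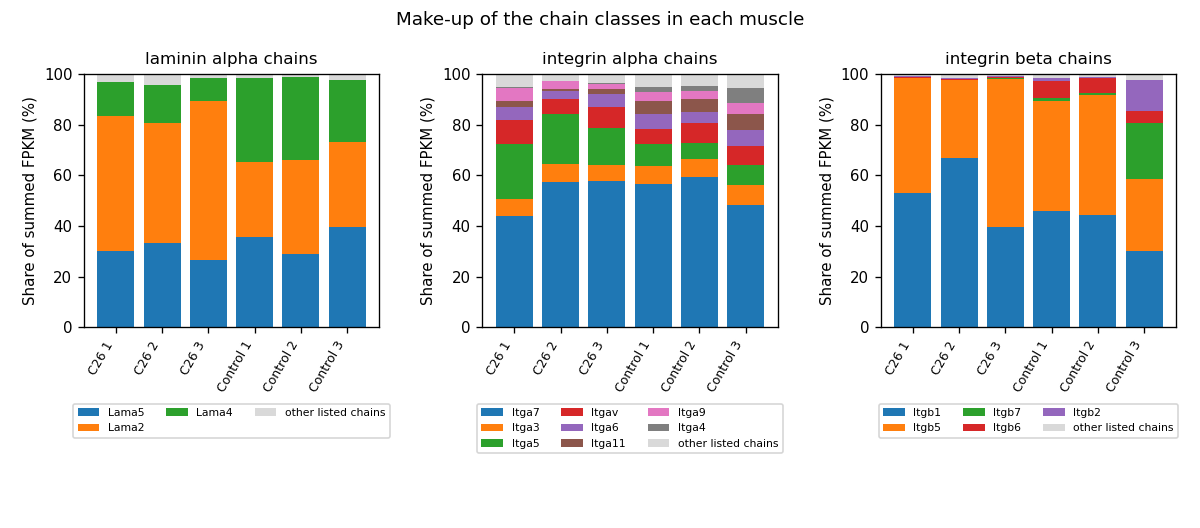
Share in percent of the summed FPKM of the laminin alpha, integrin alpha and integrin beta chains taken by each chain in each muscle, with chains that stay under 5% in every muscle pooled as other listed chains. Lama2 takes 47.5% to 63.0% of the laminin alpha chains in C26 muscles against 29.3% to 36.9% in controls, and Itga5 14.4% to 21.7% of the integrin alpha chains against 6.01% to 8.39%.

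The laminin beta and gamma chains were each carried by a single main gene. Lamb2, the beta2 chain that is concentrated at the neuromuscular junction, was the most abundant laminin gene, with 55.4, 43.0 and 74.5 TPM in C26 muscles and 61.9, 67.2 and 46.8 TPM in controls. These values overlapped, and the log2 fold change was -0.04 (SE 0.24, limma adjusted p = 0.900). Lamb1, the widely expressed beta1 chain, had 4.89, 4.43 and 4.66 TPM in C26 muscles and 10.1, 10.3 and 5.59 TPM in controls. All C26 values were below all controls, and the log2 fold change of -0.73 just missed the threshold (SE 0.23, limma adjusted p = 0.0524). Without control replicate 3 it passed, with a log2 fold change of -0.99 and a limma adjusted p of 0.00894, and it also passed with FPKM as deposited (0.0246) and with only genes of a mean TPM of at least 1 tested (0.0490).

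Lamc1, the gamma1 chain shared by most laminins, was on the higher side. It had 34.1, 44.7 and 23.1 TPM in C26 muscles and 22.8, 22.4 and 14.0 TPM in controls, so that the groups parted by a small margin between C26 replicate 3 and control replicate 1. Its log2 fold change was 0.74 (SE 0.30, limma adjusted p = 0.0962), and without C26 replicate 3 it was 1.06 and passed (limma adjusted p = 0.0229). With the replicate number as a block it passed as well (limma adjusted p = 0.0444). Lamc3 was low and did not pass, at 0.12 to 0.24 TPM in C26 muscles and 0.38 to 0.81 in controls, but passed without control replicate 3 (limma adjusted p = 0.0435) and with a pseudocount of 0.1 (limma adjusted p = 0.0258). Lamb3, an epithelial beta chain, had at most 0.84 TPM in any muscle and did not pass.

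The 4 linkers and proteoglycans, Nid1, Nid2, Hspg2 and Agrn, each had all C26 values below all control values, as had 26.5% of all listed genes, and Nid2 and Hspg2 passed the test. Nid2 had 1.05, 1.01 and 1.17 TPM in C26 muscles and 6.98, 4.43 and 3.55 TPM in controls. The C26 muscles were close to each other and the lowest control was well above them. Its log2 fold change was -1.49 (SE 0.22, limma adjusted p = 0.00643), and it passed with every muscle left out and under every alternative. Nid1, the more abundant nidogen, had 9.83, 11.7 and 12.2 TPM in C26 muscles and 33.0, 26.4 and 13.8 TPM in controls. Control replicate 3 was close to the C26 muscles. Its log2 fold change was -0.98 (SE 0.31, limma adjusted p = 0.0531), and without control replicate 3 it was -1.32 and passed (limma adjusted p = 0.00877). It also passed with FPKM as deposited (limma adjusted p = 0.0312) and with only genes of a mean TPM of at least 1 tested (0.0451, limma adjusted p).

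Hspg2, which encodes the heparan sulfate proteoglycan perlecan, had 8.61, 7.65 and 12 TPM in C26 muscles and 22.3, 21.0 and 13.4 TPM in controls. The groups did not overlap, but control replicate 3 was only slightly above C26 replicate 3. Its log2 fold change was -0.93 (SE 0.25, limma adjusted p = 0.0314). The call was lost without C26 replicate 1, C26 replicate 2, control replicate 1 or control replicate 2 (limma adjusted p of up to 0.106) and with the replicate number as a block (0.0881, limma adjusted p). Agrn encodes agrin, which binds dystroglycan on the fibre and, when made by the motor nerve, clusters acetylcholine receptors. It had 4.50, 3.80 and 4.49 TPM in C26 muscles and 19.0, 8.63 and 5.91 TPM in controls. The spread among the controls was wide, and the log2 fold change of -1.07 did not pass (SE 0.38, limma adjusted p = 0.0689), without control replicate 1 it was -0.63 (limma adjusted p = 0.0930), and without control replicate 3 it was -1.40 and passed (limma adjusted p = 0.0268).

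**Figure D3:**
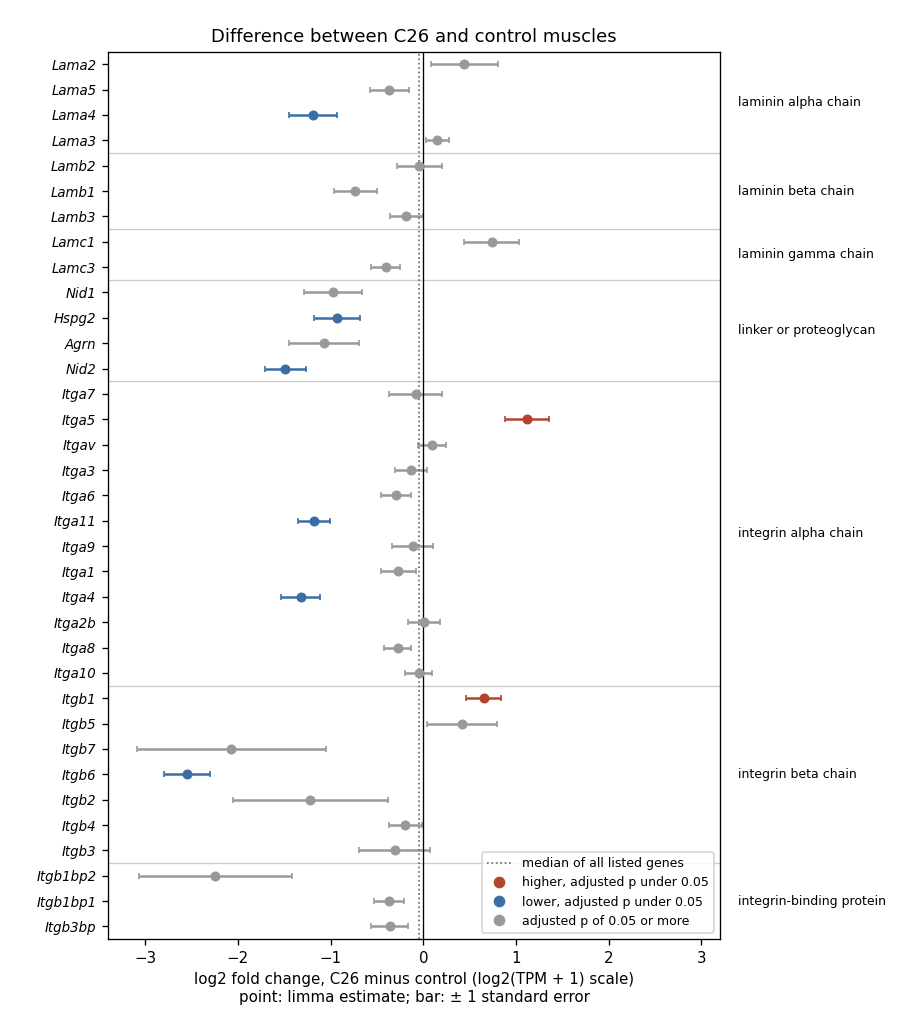
The log2 fold change of the members named in the text, C26 minus control on the log2(TPM + 1) scale, as the limma estimate with a bar of 1 standard error to each side, coloured by the call. Itgb6 lies lowest at -2.55, Itga5 highest at 1.12, and the 4 linkers and proteoglycans lie between -1.49 and -0.93.

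Among the integrin alpha chains, Itga5 rose. It encodes the alpha5 chain, which pairs with beta1 as the classical fibronectin receptor. Its level was 10.8, 13.8 and 7.97 TPM in C26 muscles and 5.69, 3.81 and 3.78 TPM in controls, with every C26 muscle above every control. The log2 fold change was 1.12 (SE 0.24, limma adjusted p = 0.0156). It passed under every alternative and was lost only without C26 replicate 1 (limma adjusted p = 0.0608). Its share of the integrin alpha chains was 14.4% to 21.7% in C26 muscles and 6.01% to 8.39% in controls.

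Itga11 and Itga4 fell. Itga11 encodes a collagen receptor chain made mainly by fibroblasts. It had 1.08, 0.51 and 1.15 TPM in C26 muscles and 3.41, 3.23 and 3.19 TPM in controls, which were close together and all well above the C26 muscles, and its log2 fold change was -1.18 (SE 0.17, limma adjusted p = 0.00632). Itga4 encodes the alpha4 chain, a receptor for Vcam1 and fibronectin found on leukocytes and on young muscle cells. It had 0.21, 0.03 and 0.21 TPM in C26 muscles and 1.5, 1.46 and 2.87 TPM in controls. Control replicate 3 was the highest, and the other controls were also above every C26 muscle. The log2 fold change of -1.32 (SE 0.21, limma adjusted p = 0.00781) was -1.11 without control replicate 3 and -3.05 with a pseudocount of 0.1, since the added 1 TPM compresses the change of so low a gene. Both passed with every muscle left out and under every alternative.

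Itga7, the laminin receptor chain of the muscle fibre, was the most abundant alpha chain. It had 22.0, 40.1 and 31.9 TPM in C26 muscles and 38.3, 37.5 and 23.3 TPM in controls. The values overlapped throughout, and the log2 fold change was -0.08 (SE 0.29, limma adjusted p = 0.841). It took 43.9% to 57.6% of the integrin alpha chains in C26 muscles and 48.1% to 59.3% in controls, a difference of -1.70 percentage points (two-sided exact permutation test, p = 0.7) that was -13.1 with quantile normalization. The other 8 alpha chains did not pass. Of these, Itga6, a further laminin receptor chain, had 2.19 to 2.80 TPM in C26 muscles and 2.88 to 4.09 in controls, without overlap. Itga8 was also lower without overlap, at 0.10 to 0.32 against 0.35 to 0.57 TPM. Itgav (3.55 to 5.03 TPM over all muscles), Itga3 (3.42 to 5.15), Itga9 (1.08 to 2.57), Itga1 (1.08 to 2.2), Itga2b (0.46 to 0.94) and Itga10 (0.09 to 0.38) overlapped between the groups.

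The integrin beta chains were led by Itgb1 and Itgb5. Itgb1, the partner of alpha7, alpha5, alpha11 and most other alpha chains, had 83.9, 95.6 and 79.0 TPM in C26 muscles and 59.9, 63.0 and 42.5 TPM in controls. The groups did not overlap, and the log2 fold change was 0.65 (SE 0.19, limma adjusted p = 0.0407). This call was lost in 5 of the 7 alternatives and on leaving out any muscle except C26 replicate 3, and the log2 fold changes of all 13 lay between 0.23 and 0.79. Itgb5, which pairs with alphav as a receptor for vitronectin, had 71.9, 43.7 and 117 TPM in C26 muscles and 56.7, 66.9 and 39.8 TPM in controls. The groups overlapped, with C26 replicate 3 the highest of all, and the log2 fold change of 0.42 did not pass (SE 0.38, limma adjusted p = 0.410), and it was 0.15 without C26 replicate 3, 0.22 without control replicate 3 and 0.77 without C26 replicate 2. Itgb1 took 39.5% to 66.9% of the beta chains in C26 muscles and 30.2% to 45.8% in controls (two-sided exact permutation test, p = 0.3).

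Itgb6 fell and was the downregulated DEG among the members. It encodes the beta6 chain, known from epithelia, where it pairs with alphav and activates latent TGF-beta. Its level was 0.25, 0.31 and 1.17 TPM in C26 muscles and 8.80, 8.34 and 6.72 TPM in controls. The controls were close to each other, and even C26 replicate 3, the highest of its group, was far below them. Itgb6 had a log2 fold change of -2.55 (SE 0.25, limma adjusted p = 0.00233), and it passed with every muscle left out and under every alternative. Of 6 epithelial markers, Epcam and Cldn4 were not listed, and the other 4 were low, with sums of 0.625 to 2.53 TPM in C26 muscles and 0.761 to 2.08 in controls. None of the 4 passed by limma, or had an unadjusted p under 0.05. Cdh1 was lower without overlap, at 0.04 to 0.12 against 0.14 to 0.49 TPM, and Krt8, Krt18 and Krt19 overlapped. The part of epithelial cells in the fall of Itgb6 was not tested.

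The leukocyte beta chains stood out in a single control. Itgb2, the common beta chain of the leukocyte integrins, had 0.89, 0.84 and 0.68 TPM in C26 muscles and 1.44, 0.69 and 16.8 TPM in controls. Itgb7, the partner of alpha4 on lymphocytes, had 0.30, 0.31 and 0.30 TPM in C26 muscles and 1.63, 0.91 and 31.5 TPM in controls. Both were far higher in control replicate 3, the library with the high Cd79b and Ptprc. Neither passed, with log2 fold changes of -1.22 and -2.07. Without control replicate 3 the log2 fold change of Itgb2 was -0.17 and did not pass, and that of Itgb7 was -0.78 and passed (limma adjusted p = 0.0263). Itgb3, the platelet and vessel chain, had 2.04 TPM in control replicate 3 and at most 0.39 in the other 5 muscles, and its log2 fold change of -0.31 was 0.15 without that control. Itgb4, the hemidesmosome chain, had 0.94 to 1.96 TPM over all muscles and did not pass.

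None of the 3 genes for proteins that bind integrin tails passed by limma, although each had all C26 values below all control values, as had 26.5% of all listed genes. Itgb1bp2, or melusin, is a chaperone-like protein of striated muscle that binds the tail of beta1. It had 21.3, 7.26 and 97.4 TPM in C26 muscles and 126, 138 and 109 TPM in controls. C26 replicate 3 was close to the controls and the other C26 muscles were far below. Melusin had a log2 fold change of -2.25 (SE 0.83, limma adjusted p = 0.0765), and without C26 replicate 3 it was -3.12 and passed (limma adjusted p = 0.00480). Itgb1bp1 (ICAP-1), which holds beta1 in its inactive state, had 38.5 to 45.1 TPM in C26 muscles and 45.6 to 60.1 in controls. It passed without control replicate 3 (limma adjusted p = 0.0453), with FPKM as deposited (0.0249, limma adjusted p) and with quantile normalization (0.0160, limma adjusted p). Itgb3bp, a centromere protein also named for binding beta3, had 1.90 to 2.40 TPM in C26 muscles and 2.50 to 4.33 in controls.

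Promoter sequences from RefSeq (GRCm38.p6) are shown for the rising genes Itga5 and Itgb1 and for Itgb6 and Itga4, which fell, so that the start regions of genes that moved in opposite directions can be read side by side. Each line holds the 150 bases before the start in the RefSeq promoter table, which for these 4 genes is the outermost start of the annotated gene, 5′ to 3′ on the strand of the gene, in lower case with motif matches in capitals. The windows are chr15:103366792-103366941 on the minus strand for Itga5, chr8:128685504-128685653 on the plus strand for Itgb1, chr2:60722604-60722753 on the minus strand for Itgb6 and chr2:79255276-79255425 on the plus strand for Itga4.
Itga5: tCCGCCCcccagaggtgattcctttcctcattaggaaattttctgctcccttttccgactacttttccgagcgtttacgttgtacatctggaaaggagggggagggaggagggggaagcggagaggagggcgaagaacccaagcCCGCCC
Itgb1: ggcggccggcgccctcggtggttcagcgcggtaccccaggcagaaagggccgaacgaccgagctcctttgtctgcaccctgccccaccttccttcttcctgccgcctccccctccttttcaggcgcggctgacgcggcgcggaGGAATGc
Itgb6: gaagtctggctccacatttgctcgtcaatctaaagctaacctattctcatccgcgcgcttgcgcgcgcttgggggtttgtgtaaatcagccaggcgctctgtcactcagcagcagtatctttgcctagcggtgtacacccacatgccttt
Itga4: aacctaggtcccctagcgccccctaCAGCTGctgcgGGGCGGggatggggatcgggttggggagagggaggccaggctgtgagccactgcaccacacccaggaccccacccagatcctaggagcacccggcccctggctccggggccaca

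The motifs searched on both strands were the GC box (GGGCGG), the CCAAT box (CCAAT), the TATA box (TATAAA), an E-box of the MyoD type (CAGCTG), an AP-1 site (TGANTCA), a FoxO site (GTAAACA) and a TEAD site (GGAATG), and none of these motifs contains another. The start used for Itga5 matched no GENCODE transcript, while those of the other 3 did. The capitals mark 2 GC boxes in Itga5, 1 TEAD match in Itgb1 and 1 E-box and 1 GC box in Itga4, and the Itgb6 window held none of the motifs. Windows were found for 24 of the 36 members, and for 14 of these the annotated gene reaches further upstream than the start used. A GC box was present in 9 of them, against 52.8% of the windows of all listed genes and 29.0% of all 27025 windows, and the TATA, AP-1 and FoxO letters were in 0 of the 24, against 3.57%, 2.49% and 1.0% of the windows of listed genes, shares at which 24 windows would hold few or none. The E-box letters were in 4 of the 24 member windows, against 7.57% for listed genes. A TEAD match was in 2 member windows (6.07% for listed genes) and a CCAAT box in 1 (28.2%). Of the other called members with a window, Hspg2 held 3 GC boxes and Itga11 none of the motifs.

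Counts of cell type markers stand against 14.5% of all listed genes lower and 19.4% higher. The share lower was 85.7% for adipocyte, 60% for fibroblast, and 33.3% for pericyte and smooth muscle markers. For muscle fibre and Schwann cell markers it was 22.2% each, and for endothelial markers 18.2%. None of the markers of these lists was called higher. The 9 muscle fibre markers, all listed, summed to 101930 to 176774 TPM in C26 muscles and 196576 to 221137 in controls, and 2 of them, Pvalb and Mylpf, fell with log2 fold changes of -2.59 and -1.95. All 10 fibroblast markers were listed, and their summed level was 307 to 465 TPM in C26 muscles and 621 to 870 in controls, with 6 of the 10 lower. The 7 adipocyte markers, all listed, summed to 475 to 684 TPM and 777 to 6185, with 6 lower. Of the 11 endothelial markers, all listed, Kdr and Emcn were lower, and the sums were 160 to 172 TPM in C26 muscles and 168 to 243 in controls. The 9 markers of pericytes and smooth muscle, of which Cspg4, Pdgfrb and Kcnj8 were lower, summed to 147 to 216 against 183 to 267 TPM. For the 9 Schwann cell markers, with S100b and Pmp22 lower, the sums were 39.4 to 82.8 and 76.1 to 190 TPM. The endothelial, pericyte and Schwann cell sums overlapped between the groups. The 3 controls fell in the order of their adipocyte sums for 15 of the 36 members (41.7%), among them 9 of the 16 with all C26 values below all control values, and for 16.7% of all listed genes, a count chosen after the values were seen. This order is not particular to adipocytes. The fibroblast, endothelial, and pericyte and smooth muscle sums of the controls fell in the same order, and the muscle fibre and Schwann cell sums did not. The part of these cell types in the results was not tested.

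The vessel marker Pecam1 had 29.7 to 32.4 TPM in C26 muscles and 23.8 to 38.8 in controls, with a log2 fold change of 0.03 (limma adjusted p = 0.920). Egfl7, the most abundant endothelial marker, had 23.5 to 29.8 TPM in C26 muscles and 34.3 to 55.1 in controls. Its log2 fold change of -0.60 did not pass (limma adjusted p = 0.0706). Of the 11 endothelial markers, 7 had a log2 fold change below 0 and 4 above 0. Of the 11 macrophage and leukocyte markers 0 passed by limma and 3 had an unadjusted p under 0.05, Cd68 and Cd163 on the higher and Csf1r on the lower side. The sums of all 11 were 105 to 544 TPM in C26 muscles, where Cd68 made up 422 of the 544, and 105 to 517 in controls. Of the 8 lymphocyte markers Cd79b and Cd4 were listed. Satellite cell markers, 6 of 6 listed, summed to 15.4 to 28.7 TPM against 20.4 to 21.2, with Vcam1 lower (log2 fold change -1.42), and 3 of 6 platelet markers were listed, with Pf4 lower at 5.53 to 7.81 against 11.4 to 19.1 TPM.

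**Figure D4:**
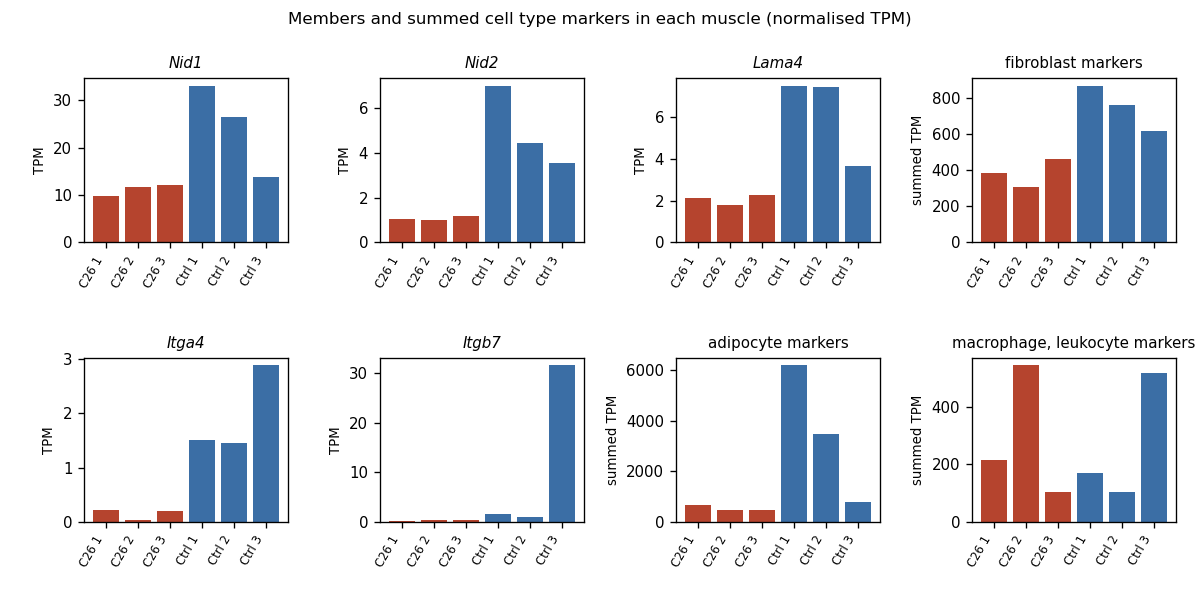
Normalised TPM of Nid1, Nid2, Lama4, Itga4 and Itgb7 and the summed TPM of the fibroblast, adipocyte and macrophage or leukocyte markers, as 1 bar per muscle with a linear axis from 0. The controls differ widely in the adipocyte sum, from 777 to 6185 TPM, and Itgb7 is at 31.5 TPM in control replicate 3.

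Of 34 listed other matrix genes of the basement membrane zone and integrin ligands, 15 were lower (44.1%, against 14.5% of all listed genes) and 1 was higher (2.94%, against 19.4%), with a median log2 fold change of -0.50. The type VI collagen genes Col6a2 and Col6a1, whose product ties the basement membrane to the tissue around it, fell from 26.8 to 45.3 and 42.2 to 63.2 TPM in controls to 1.73 to 5.60 and 3.63 to 10.9 TPM in C26 muscles. Col15a1 fell to 1.22 to 2.90 TPM from 12.2 to 26.9, Postn to 0.45 to 1.45 from 7.28 to 12.1, and Col6a3 to 0.72 to 1.36 from 5.94 to 13.1. Sparc, a collagen-binding protein and the most abundant gene of this list, fell from 219 to 430 TPM to 65.3 to 106.

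Of the type IV collagen genes, Col4a5 and Col4a3 fell with log2 fold changes of -1.06 and -0.43, from low levels. The more abundant Col4a1 and Col4a2 did not pass. Col4a1 had 27.3 to 31.5 TPM in C26 muscles and 21.6 to 51.4 in controls, and Col4a2 19.2 to 21.6 and 15.9 to 33.4. Fibronectin (Fn1), the ligand of the alpha5 chain, fell with a log2 fold change of -1.82 while Itga5 rose. Thbs1, an adhesive glycoprotein, was the gene of this list that rose, from 0.44 to 0.52 TPM in controls to 2.29 to 6.73 in C26 muscles. Smoc2, the second most abundant gene of the list, had 43.5 to 81.6 TPM in C26 muscles and 67.9 to 119 in controls and did not pass.

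The list of the dystroglycan route to laminin and other laminin receptors also holds genes that are neither, among them Lrp4. Of its 26 listed genes, 5 were higher (19.2%, against 19.4% of all listed genes) and 8 lower (30.8%, against 14.5%), with a median log2 fold change of -0.16. Dag1, which encodes dystroglycan itself, rose to 196, 152 and 111 TPM in C26 muscles from 52.3, 65.0 and 31.8 TPM in controls. All C26 muscles were above all controls, and the log2 fold change was 1.62 (SE 0.32, limma adjusted p = 0.0128). Pomt2, which starts the laminin-binding sugar chain of dystroglycan, rose to 6.40 to 8.22 TPM from 3.42 to 4.43. Dpm1 and the syndecan Sdc4 rose as well, with log2 fold changes of 1.49 and 1.45. Pomk, B3galnt2, Lrp4, Pomgnt2 and Bcam fell, with log2 fold changes of -1.30, -1.24, -0.85, -0.84 and -0.84. Pomk, B3galnt2 and Pomgnt2 act on the same sugar chain, and Bcam is a receptor for the laminin alpha5 chain. Rpsa, the most abundant gene of the list, had 444 to 903 TPM over all muscles and overlapped. Without C26 replicate 1 the counts were 2 higher and 2 lower, without C26 replicate 2 they were 2 and 3, without control replicate 1 they were 3 and 2, and 8 genes were higher without C26 replicate 3 and 5 lower without control replicate 2.

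Of 39 listed genes of the complex on the inner side of integrins, 8 were higher (20.5%, against 19.4% of all listed genes) and 9 lower (23.1%, against 14.5%), with a median log2 fold change of -0.16. Flnc, the filamin of striated muscle, rose from 42.6 to 93.0 TPM in controls to 515 to 2394 in C26 muscles, with C26 replicate 2 far above the others. Kank1, Sorbs3, Nrap and Pdlim5 rose with log2 fold changes of 1.70, 1.61, 1.59 and 1.17. Paxillin (Pxn), a scaffold of focal adhesions, rose to 104 to 132 TPM from 47.4 to 58.6. Cib2 fell from 290 to 358 TPM to 72.5 to 123, the largest fall of the list that passed. Flna, Pdlim7, Kank2 and Parva fell with log2 fold changes of -1.44, -1.34, -1.07 and -0.79. Talin (Tln1), kindlin-2 (Fermt2), vinculin (Vcl) and Ilk, which act between beta1 and actin, did not pass, with log2 fold changes of 0.87, 0.79, 0.75 and -0.16. The counts fell to 5 higher and 1 lower without C26 replicate 1 or without control replicate 1 and to 5 and 2 without C26 replicate 2, and 5 were lower without control replicate 2.

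Among 20 proteases and inhibitors that act on this matrix, 4 were higher (20%, against 19.4% of all listed genes) and 5 lower (25%, against 14.5%), with a median log2 fold change of -0.15. Mmp14, a membrane-bound matrix protease, rose to 11.3 to 14.1 TPM from 4.92 to 8.0. The proteoglycan-cleaving Adamts9, Adamts1 and Adamts4 rose with log2 fold changes of 1.2, 1.02 and 0.63. Adamts4 was near the floor, at 0.32 to 0.87 TPM in C26 muscles and 0.03 to 0.12 in controls. Mmp15, Bmp1, Adamts20, Timp2 and Plat fell, with log2 fold changes of -1.57, -1.47, -1.09, -0.82 and -0.71. Timp3, an inhibitor held in the matrix and on average the most abundant gene of this list, had 30.2 to 35 TPM in C26 muscles and 39.4 to 55.6 in controls and did not pass (log2 fold change -0.55). Timp4, the next most abundant, had 28.7 to 46.3 TPM over all muscles and overlapped. Without C26 replicate 1 or control replicate 1 the counts were 1 higher and 2 lower, and 1 was higher without C26 replicate 2.

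**Figure D5:**
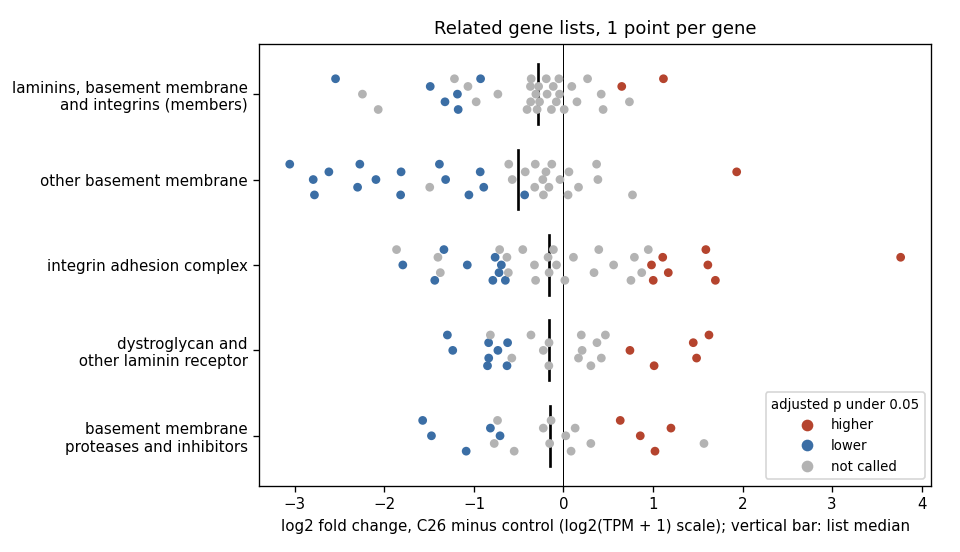
The log2 fold change, C26 minus control on the log2(TPM + 1) scale, of each of the 36 members and of the genes of 4 related lists, as 1 point per gene coloured by the call, with a vertical bar at the median of each list. The medians lie between -0.50 for the other basement membrane genes and -0.15 for the proteases and inhibitors, and the dystroglycan and adhesion complex lists hold calls on both sides.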

How the data were processed

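RNA of 3 C26 and 3 control gastrocnemius samples was depleted of rRNA with RNase H and sequenced on a BGISEQ-500. The authors deposited FPKM estimated by RSEM from reads aligned with Bowtie2. The paper's methods name GRCm38.p5 and the submitters' processing notes mm9, and these notes also name HISAT2 2.0.4, Bowtie2 2.2.5 and RSEM 1.2.12. The extraction text of the labels describes a human monocytic cell line. The deposited FPKM have 2 decimals and a lowest value of 0.01, and read counts were not used here, so the depth per sample is unknown. FPKM summed to between 531061 and 585169 in C26 and between 626992 and 688301 in control muscles. Symbols came from the RefSeq GRCm38.p6 table for 13327 of 13363 Entrez IDs.

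FPKM were rescaled to TPM, divided by TMM factors (30% of log ratios and 5% of levels trimmed) and tested as log2(TPM + 1) with limma 3.58.1 in R 4.3.3, two-sided and without a filter, and p-values were adjusted over the whole table (Benjamini-Hochberg). Fold changes are on the log2(TPM + 1) scale, which understates those of low genes. The fit was tested on simulated data. Chain shares were computed from FPKM within each muscle. The scaling was varied (no TMM factors, unscaled FPKM, quantile normalization), and so were the pseudocount (0.1), the filter (mean TPM of 1 or more), the prior variance (intensity trend), the block (replicate number) and the muscles, each left out in turn.

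All 36 members are counted, and 1 member and 1 gene of a related list are not reported here by name. From each related list the text names up to 5 called genes a direction by log2 fold change and the 2 with the highest mean level. Fn1, Col4a1, Col4a2, Col4a3, Col4a5, Pxn, Tln1, Fermt2, Vcl and Ilk were added after their values were seen. The members and the lists were chosen with earlier results of these data known.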

Additional observations from a re-analysis of the deposited data

How the results depend on the processing

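Itga11, Itga4, Itgb6 and Nid2 passed under all 7 alternatives and with each muscle left out. The number of members higher in C26 was 2, and 1 with a pseudocount of 0.1, with TPM without TMM and with FPKM as deposited, and 0 to 3 with a muscle left out. The number lower was 6 and ranged from 4 to 12 with a muscle left out, with 12 without control replicate 3. The number of downregulated DEGs among members was 1, and 3 with a pseudocount of 0.1 (Itgb6, Itga4 and Nid2), and 1 to 2 with a muscle left out. For the dystroglycan list 8 lower genes became 5 with quantile normalization, and for the proteases 4 higher genes became 1 with FPKM as deposited. Leaving out a muscle gave 1 to 2 higher and 11 to 16 lower genes among the other basement membrane genes, 5 to 11 higher and 1 to 8 lower in the adhesion complex, 2 to 8 and 2 to 8 in the dystroglycan list and 1 to 4 and 2 to 7 among the proteases. The difference in the Itga7 share was -13.1 percentage points with quantile normalization and ranged from -4.96 to 2.78 with a muscle left out, being 2.78 without C26 replicate 1 and 0.639 without control replicate 2. Same-numbered muscles did not deviate together (r = -0.0394, -0.0843 and -0.112), and differently numbered ones had r of -0.1 to 0.125. Deviations from the mean of 3 muscles depend on each other, so these values cannot tell whether same-numbered muscles share more than a number. With the replicate block 1844 genes were higher and 1236 lower, among members 2 (Itga5 and Lamc1) and 5, in the adhesion complex 4 were lower, in the dystroglycan list 3 were lower and among the proteases 2 were higher. Where no cause is named, the cause was not tested. With 3 muscles a group, the exact test cannot go below p = 0.1, and the counting error of low FPKM is unknown.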
